A study of Mus musculus with 8 samples.

Results

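Olig1 and Olig2 are neighbouring genes on mouse chromosome 16 that encode basic helix-loop-helix transcription factors of the oligodendrocyte lineage. They were chosen by their PSC minus ESC difference in log2 value, as members of the largest rises in parthenogenetic stem cells over embryonic stem cells, and they are 2 of the 18194 genes measured. Each is read by 1 probe set, 1416149_at for Olig1 and 1416232_at for Olig2, and no other probe set names either gene alone.

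The series comes from a study of parthenogenetic cells for engineered heart tissue and holds 8 Affymetrix arrays of mouse total RNA. EB_PSC (2 arrays) are embryoid bodies, free-floating aggregates in which the parthenogenetic cells, of strain C57BL/6, differentiated for 15 days. PSC (3 arrays) are the undifferentiated parthenogenetic stem cells of C57BL/6, taken on day 6 from blastocysts that grew out of superovulated oocytes activated by strontium chloride. ESC (3 arrays) are R1, an embryonic stem cell line kept on fibroblast feeders with leukemia inhibitory factor. No transgene or drug treatment is named for any group, and the labels give neither a strain for R1 nor feeders for PSC. Parthenogenetic origin, line, strain and culture cannot be told apart in PSC against ESC. The series holds no embryoid bodies of ESC, so in EB_PSC against ESC differentiation cannot be told apart from these either. Whether the arrays of 1 group stand for separate cultures is not in the labels, and p-values therefore measure the spread between these arrays only, which may be technical.

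In the developing spinal cord, Sonic hedgehog from the floor plate induces Olig2 in a ventral progenitor domain that gives rise first to motor neurons and later to oligodendrocyte progenitors. Olig2 is needed for both cell types, and Olig1 acts mainly in the maturation of oligodendrocytes and in myelin repair. Both proteins bind E boxes (CANNTG) as dimers, E proteins are common partners of such factors, and Id proteins block E proteins by holding them in dimers that cannot bind DNA. In the embryo neither gene is a marker of undifferentiated pluripotent cells.

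The Olig2 promoter is shown because Olig2 fell in EB_PSC against PSC, as described below with its test. RefSeq's table on the build GRCm38.p6 held it, and it held no entry for Olig1. The 250 bases before the Olig2 start, on the plus strand at chr16:91225300-91225549, are printed with capitals for CCAAT (read here on the other strand as ATTGG) and TATAAA.
Olig2: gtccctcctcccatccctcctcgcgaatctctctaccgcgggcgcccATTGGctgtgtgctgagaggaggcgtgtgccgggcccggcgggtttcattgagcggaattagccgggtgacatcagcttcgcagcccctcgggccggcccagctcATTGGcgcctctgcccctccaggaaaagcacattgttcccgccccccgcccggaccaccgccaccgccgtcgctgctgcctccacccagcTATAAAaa

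Both strands were searched, and no matches of different motifs overlapped. CCAAT, the core of a common promoter element, had 2 matches, whose first bases lie 203 and 98 bases before the start. Of 32817 promoters of this length, 33.8% hold at least 1 match, and the share that hold 2 is not given here. TATAAA, the core of the TATA box, had 1 match that begins 8 bases before the start, and 12.4% of promoters hold one. The E box CANNTG had 0 matches in this window, while 66.2% of promoters hold one. The dinucleotide CG occurred 22 times, against a median of 6 over all promoters, and 14.8% of promoters have as many. In all, 66.8% of the 250 bases were G or C. These matches describe the letters of the window and no binding was measured.

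The culture labels were set against lists of marker genes. All values are log2 RMA values as deposited, and differences between groups are in log2 units. A gene was called when limma's test gave an adjusted p below 0.05 over all 18194 genes. A group mean under 5.44, the median of all values, is called dim here. RMA compresses differences of dim probe sets, so a difference that involves a dim group may be too small and is given with no fold. The pluripotency list averaged 9.17 to 9.33 on the EB_PSC arrays, 11.3 to 11.5 on the PSC arrays and 11.7 to 12.0 on the ESC arrays. All 10 of its genes fell in EB_PSC against PSC, where 25.2% of all genes fell. Between PSC and ESC, 1 rose and 2 fell (Pou5f1 and Zfp42), where 9.07% of all genes rose and 11.7% fell. Pou5f1, which sustains pluripotency, averaged 9.56 in EB_PSC, 11.70 in PSC and 12.31 in ESC. The 12 fibroblast genes averaged 8.47 to 8.78 in EB_PSC, 5.54 to 5.71 in PSC and 6.27 to 6.59 in ESC, and 7 of them were lower in PSC than in ESC. The part of feeder cells in the ESC values was not tested. Of the RNA quality controls, the 3' minus 5' difference of Gapdh was -0.09 to -0.06 in EB_PSC, -0.06 to 0.00 in PSC and 0.08 to 0.17 in ESC. That of Actb was 1.09 to 1.17 in EB_PSC, 1.04 to 1.54 in PSC and 0.69 to 1.13 in ESC, so ESC was the highest group for Gapdh and reached the lowest values for Actb.

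Olig1 was high in PSC, intermediate in the embryoid bodies and dim in ESC. Its log2 values were 7.18 and 6.41 on the EB_PSC arrays, 9.76, 9.60 and 9.71 on the PSC arrays, and 4.29, 3.74 and 3.83 on the ESC arrays. The 3 groups did not overlap, as for 17.4% of all genes in PSC over ESC, 37.8% in EB_PSC below PSC and 25.0% in EB_PSC over ESC, and the gap between neighbouring groups was wider than any range within a group. The group means were 6.80 ± 0.54 in EB_PSC (SD, n = 2), 9.69 ± 0.08 in PSC (SD, n = 3) and 3.96 ± 0.30 in ESC (SD, n = 3).

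Olig2 was above the dim limit in PSC alone. Its values were 4.93 and 4.11 in EB_PSC, 7.01, 6.57 and 8.01 in PSC, and 3.88, 3.64 and 3.48 in ESC. The PSC arrays stood above all others, and the lower EB_PSC array lay 0.23 above the highest ESC array. The means were 4.52 ± 0.58 in EB_PSC (SD, n = 2), 7.20 ± 0.74 in PSC (SD, n = 3) and 3.66 ± 0.20 in ESC (SD, n = 3). In RNA of whole cultures, fewer cells with the transcript and less transcript per cell cannot be told apart.

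**Figure D1:**
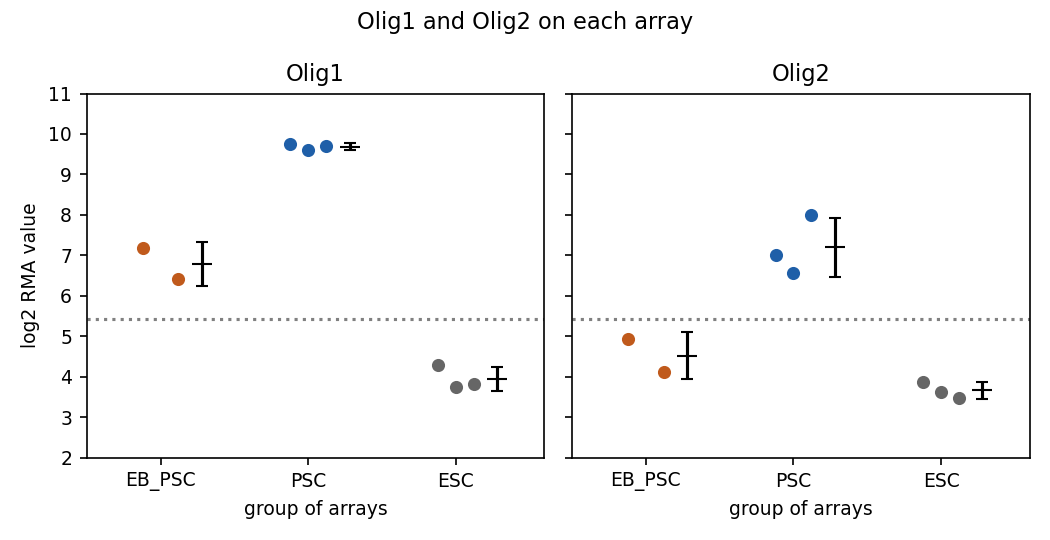
Log2 RMA value (vertical axis) of Olig1 and of Olig2 on each of the 8 arrays, by group, with the group mean ± SD beside the points and the dim limit of 5.44 as a dotted line. The PSC arrays are highest for both genes, and EB_PSC lies above the dim limit for Olig1 (6.80) and below it for Olig2 (4.52).

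The PSC against ESC difference chose these genes, so it is a description and has no test. Olig1 was 5.73 ± 0.19 higher in PSC (SE of the fit), the largest of the 18194 differences in that direction as measured. Olig2 was 3.53 ± 0.30 higher, the 5th largest as measured. Just above Olig2 in that order stood AI662270 at 3.57 and just below it Gm21283 at 3.17. ESC was dim for both genes, so RMA may have compressed both sizes, while choosing the genes by this difference can enlarge it. Their places in the order are not firm.

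With differentiation both genes fell. Olig1 fell by 2.89 ± 0.21 log2 units in EB_PSC against PSC, which is 7.43-fold, with a limma adjusted p of 1.16e-07. Olig2, dim in EB_PSC, fell by 2.67 ± 0.33, with a limma adjusted p of 1.79e-05. The EB_PSC arrays took no part in the choice of the genes, but the PSC arrays did, so these p-values are not independent of it. Over all genes 43.9% were called in this comparison and 25.2% fell.

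In the embryoid bodies Olig1 was above the ESC arrays. With ESC dim, it was 2.84 ± 0.21 higher in EB_PSC than in ESC (limma adjusted p = 1.2e-07). In this comparison 44.9% of all genes were called and 19.3% were higher. Olig2 was 0.86 ± 0.33 higher in EB_PSC than in ESC, with a limma adjusted p of 0.0491 and both groups dim. The ESC arrays took part in the choice of the genes, so neither p-value is independent of it. That call was lost without the first EB_PSC array (0.45, limma adjusted p = 0.424), the first PSC array (adjusted p = 0.068), the second ESC array (adjusted p = 0.0907) or the third ESC array (adjusted p = 0.137). It was also lost under 5 other processing choices.

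The arrays of a group differed more for Olig2 than for Olig1 in PSC. Olig1 ranged over 0.16 among the 3 PSC arrays, and Olig2 over 1.44, with the third array highest for Olig2 and in the middle for Olig1. The SD of Olig2 in PSC, 0.74, was exceeded by 1 of 18194 genes, Ninl at 0.75, and the median SD of all genes was 0.12. The SD of Olig1 in PSC was 0.08, larger than that of 29.3% of genes. In EB_PSC both genes were higher on the first array than on the second, by 0.77 for Olig1 and 0.82 for Olig2. Their SDs of 0.54 and 0.58 there were larger than those of 98.4% and 98.7% of genes, beside a median of 0.11. In ESC the first array was highest for both.

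Of 14 measured oligodendrocyte progenitor genes, 1 was higher in PSC than in ESC, 0 were lower and 13 were not called. Over all genes 9.07% were called higher and 11.7% lower, 20.8% together, so the count of higher genes was near the share of all genes. Their median difference was 0.02, against 0.01 over all genes, and 8 of the 14 were dim in all groups. These lists, like the others below, were chosen with earlier results of these data known.

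Sox10, a transcription factor that acts downstream of Olig2 in oligodendrocytes, had 6.40 and 6.83 in EB_PSC, 6.89, 6.54 and 6.71 in PSC, and 6.70, 6.64 and 6.64 in ESC. Its groups overlapped, and PSC minus ESC was 0.05 with a limma adjusted p of 0.85. Nkx2-2, a homeodomain factor that works with Olig2 in these progenitors, averaged 3.61 in EB_PSC, 3.61 in PSC and 3.35 in ESC, dim in each. Cspg4, the NG2 proteoglycan of progenitors, averaged 5.83 in EB_PSC, 6.10 in PSC and 6.21 in ESC, and PSC minus ESC was -0.11 with a limma adjusted p of 0.63. The gene called was Bcas1, which marks newly forming oligodendrocytes, 0.46 ± 0.12 higher in PSC (limma adjusted p = 0.0135). It lost that call over the mean of its 3 probe sets (0.15, limma adjusted p = 0.345), without the first PSC array (adjusted p = 0.0676) and without the first ESC array (adjusted p = 0.0561).

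In EB_PSC against PSC, 2 progenitor genes rose, 3 fell and 9 were not called, with a median of -0.10, beside -0.09 over all genes. Over all genes 18.8% rose and 25.2% fell. Pdgfra, the PDGF receptor of progenitors and also of many mesenchymal cells, had 8.61 and 8.55 in EB_PSC against 5.65, 5.76 and 5.76 in PSC. All EB_PSC arrays lay above all PSC arrays, and the rise was 2.86 ± 0.18 (limma adjusted p = 2.93e-08), or 1.44 with the mean of its 3 probe sets. Pdgfrb, a mesenchymal gene of the fibroblast list and dim in PSC, rose by 5.03 ± 0.23 in the same comparison. With its probe sets averaged it rose by 3.01, and its part in the Pdgfra rise was not tested. Bcas1 fell by 0.60 ± 0.13 (limma adjusted p = 0.00196), a call lost with its probe sets averaged (adjusted p = 0.0504).

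Of 13 measured myelin genes, 2 were higher in PSC than in ESC, 0 were lower and 11 were not called, with a median of 0.10, beside 9.07% higher and 11.7% lower over all genes. Mbp, myelin basic protein, averaged 7.37 in EB_PSC, 6.40 in PSC and 5.98 in ESC. Its PSC minus ESC difference of 0.43 (limma adjusted p = 0.0309) became 0.10 over all 8 of its probe sets and 0.029 without probe sets prone to cross-hybridisation. It was also not called without the first PSC, second PSC or first ESC array (adjusted p = 0.107 to 0.127). Cnp, an enzyme of myelinating cells that other cells also make, had 8.74 and 8.20 in EB_PSC, 9.98, 9.96 and 9.67 in PSC, and 8.92, 8.85 and 9.38 in ESC. The PSC arrays were highest, by 0.82 ± 0.17 over ESC (limma adjusted p = 0.00392), but the difference was 0.12 with its probe sets averaged and -0.057 without those prone to cross-hybridisation. In EB_PSC against PSC, 3 myelin genes rose, 3 fell and 7 were not called, near the 18.8% and 25.2% of all genes. Ugt8a, which makes the myelin lipid galactosylceramide, fell by 1.10 ± 0.17 (limma adjusted p = 0.000101) and was dim in EB_PSC. With its probe sets averaged it fell by 0.62. Tspan2, a tetraspanin of myelinating cells, rose by 1.91 ± 0.14 (limma adjusted p = 1.56e-07), or by 2.98 with its probe sets averaged.

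Motor neuron genes were mostly dim, 7 of 12 in all groups. Between PSC and ESC, 1 was higher, 1 lower and 10 not called, near the 9.07% and 11.7% of all genes. Mnx1, a homeobox gene that marks motor neurons, averaged 3.43 in EB_PSC, 3.53 in PSC and 3.38 in ESC. Lhx3, a LIM-homeodomain factor of motor neuron specification, averaged 4.89 in EB_PSC, 4.79 in PSC and 4.90 in ESC. Both were dim in every group. Isl1, needed for motor neurons and also for heart progenitors, had 7.03 and 7.10 in EB_PSC, 5.30, 5.58 and 5.39 in PSC, and 4.44, 4.75 and 5.08 in ESC. Its groups did not overlap and their order was not that of Olig1 or Olig2. Isl1, dim in PSC, rose by 1.64 ± 0.17 in EB_PSC against PSC (limma adjusted p = 3.44e-06). There 3 motor neuron genes rose, 2 fell and 7 were not called, beside 18.8% and 25.2% of all genes. Foxp1, used in motor neuron columns and in many other tissues, was lower in PSC than in ESC, at -0.82 ± 0.17 (limma adjusted p = 0.00424).

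Of 14 genes that pattern the neural tube around the Olig2 domain, 1 was higher in PSC than in ESC, 0 were lower and 13 were not called, beside 9.07% higher and 11.7% lower over all genes. Nkx6-1, an activator of Olig2 in ventral progenitors, averaged 4.90 in EB_PSC, 5.09 in PSC and 5.24 in ESC, dim in each. Pax6, expressed in a graded way across the ventral tube, averaged 4.81 in EB_PSC, 5.01 in PSC and 5.42 in ESC. Irx3, which limits the Olig2 domain dorsally, had 7.74 and 8.09 in EB_PSC, 5.87, 5.88 and 5.79 in PSC, and 5.37, 5.63 and 5.06 in ESC. It was highest in EB_PSC, where Olig2 had fallen (a link was not tested), and rose by 2.07 ± 0.17 against PSC (limma adjusted p = 3.09e-07). Its PSC minus ESC difference, 0.50 with ESC dim (limma adjusted p = 0.0299), lost its call after repeated quantile normalization (adjusted p = 0.0511). The call was also lost without any one of the PSC arrays and without the first or the third ESC array (adjusted p up to 0.143). In EB_PSC against PSC, 5 of the 14 rose, 0 fell and 9 were not called, beside 18.8% and 25.2% of all genes. Foxa2, a floor plate and endoderm factor that was dim in PSC, rose by 2.79 ± 0.16 (limma adjusted p = 9.08e-09).

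Of 11 neural progenitor genes, 5 rose in EB_PSC against PSC, 0 fell and 6 were not called, with a median of 0.15. Over all genes 18.8% rose and 25.2% fell in this comparison, with a median of -0.09. Sox11, a transcription factor of early neurons and many embryonic tissues, had 11.65 and 11.98 in EB_PSC, 8.43, 8.41 and 8.03 in PSC, and 6.41, 5.70 and 6.12 in ESC. The groups did not overlap, and the rise in EB_PSC against PSC was 3.52 ± 0.20 (limma adjusted p = 8.78e-09). Sox11 was also 2.21 ± 0.18 higher in PSC than in ESC (limma adjusted p = 2.58e-06), but 0.14 with its 6 probe sets averaged (adjusted p = 0.462). Nes, the progenitor filament nestin, rose by 0.57 ± 0.14 (limma adjusted p = 0.0041), a call lost without the second EB_PSC array (0.42, adjusted p = 0.065) or with its probe sets averaged (0.21, adjusted p = 0.155). Sox1, an early marker of neuroectoderm, averaged 4.98 in EB_PSC, 4.43 in PSC and 4.59 in ESC, dim in each.

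**Figure D2:**
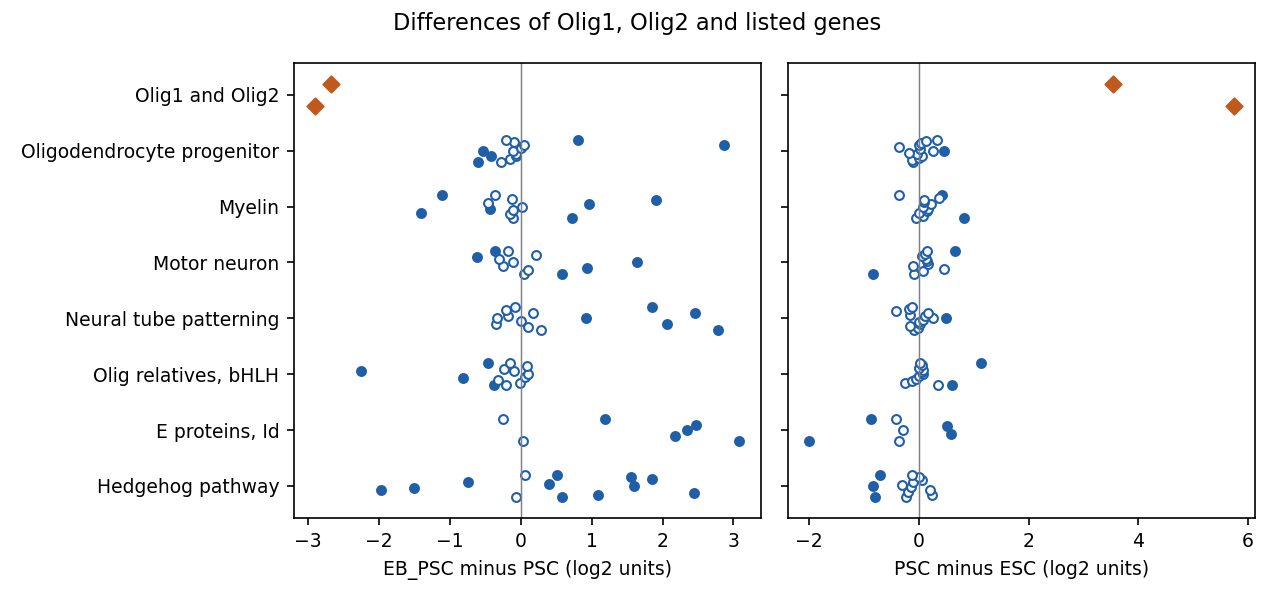
Differences in log2 units for Olig1 and Olig2 (diamonds) and for the measured genes of the 7 lists named on the vertical axis (circles), EB_PSC minus PSC on the left and PSC minus ESC on the right, with filled circles for called genes and open circles for genes not called. The diamonds on the right are a description with no test. Olig1 and Olig2 lie at -2.89 and -2.67 on the left and at 5.73 and 3.53 on the right, farther out on their side than the genes of these 7 lists. On the right this follows largely from the choice of the pair by that difference. The pluripotency list is not drawn. Of its genes, Esrrb and Klf4 fell further than both in EB_PSC minus PSC, at -3.62 and -3.03. Fgf4, at -2.85, fell further than Olig2 only.

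Among relatives of Olig1 and Olig2, Olig3, the third member of the family, averaged 3.62 in EB_PSC, 3.78 in PSC and 3.76 in ESC. It was dim in each group, and PSC minus ESC was 0.02 with a limma adjusted p of 0.94. Of 13 related and proneural helix-loop-helix genes, 8 were dim in all groups, and 2 were higher in PSC than in ESC, 0 lower and 11 not called, beside 9.07% and 11.7% of all genes. Neurog2, a proneural factor that works beside Olig2 in motor neuron progenitors, was at 4.29 in EB_PSC, 4.20 in PSC and 4.19 in ESC. Neurod1, a factor of neuronal and pancreatic endocrine differentiation, had 4.94 and 5.21 in EB_PSC, 7.40, 7.23 and 7.35 in PSC, and 5.80, 6.57 and 6.20 in ESC. Every PSC array lay above all others. The difference was 1.13 ± 0.17 for PSC over ESC (limma adjusted p = 0.000388). In EB_PSC, where it was dim, Neurod1 fell by 2.25 ± 0.19 against PSC (limma adjusted p = 4.61e-07). Where Olig1 was higher in EB_PSC than in ESC, Neurod1 lay below ESC, at -1.12 (limma adjusted p = 0.000238). In EB_PSC against PSC, 0 of the 13 rose, 4 fell and 9 were not called, with a median of -0.20, beside 18.8% and 25.2% of all genes. Bhlha15, a factor of secretory cells, was 0.61 ± 0.12 higher in PSC than in ESC (limma adjusted p = 0.00231), a call lost with its probe sets averaged (0.28, adjusted p = 0.0769).

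The dimer partners of such factors and their inhibitors were above the dim limit in all cultures, for 7 of 7 genes. Id1, an inhibitor of E proteins, averaged 9.05 ± 0.06 in EB_PSC (SD, n = 2) and had 5.60, 5.98 and 6.32 in PSC and 8.27, 7.85 and 7.75 in ESC. PSC, the highest group for Olig1, was the lowest for Id1 and did not overlap either other group. A link of Id1 to Olig1 was not tested. The PSC minus ESC difference of Id1 was -1.99 ± 0.18 (limma adjusted p = 6.76e-06), and it rose by 3.08 ± 0.20 in EB_PSC against PSC (limma adjusted p = 3.54e-08). Id3, a further inhibitor, averaged 10.01 in EB_PSC, 7.67 in PSC and 8.03 in ESC. It rose by 2.34 ± 0.16 in EB_PSC (limma adjusted p = 7.62e-08), while PSC minus ESC was -0.36 with a limma adjusted p of 0.102. Id2, likewise an inhibitor, rose by 2.17 ± 0.15 in EB_PSC against PSC (limma adjusted p = 6.06e-08). It was 0.59 higher in PSC than in ESC (limma adjusted p = 0.00665), but 0.16 with its probe sets averaged (adjusted p = 0.373). Id4, which holds back oligodendrocyte differentiation, averaged 8.04 in EB_PSC, 8.01 in PSC and 8.30 in ESC, and neither difference to PSC was called.

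The E protein Tcf4 was lower in PSC than in ESC, at -0.88 ± 0.14 (limma adjusted p = 0.000852), or -0.57 with the mean of its 6 probe sets. It rose by 1.19 ± 0.16 in EB_PSC against PSC (limma adjusted p = 4.31e-05), or by 0.51 with that mean. The E protein Tcf12 had 11.40 and 11.45 in EB_PSC, 8.98, 8.90 and 8.97 in PSC, and 8.20, 8.85 and 8.28 in ESC. It rose by 2.48 ± 0.17 in EB_PSC against PSC (limma adjusted p = 7.01e-08). Its PSC minus ESC difference of 0.51 (limma adjusted p = 0.0315) lost its call without any one of the PSC arrays or without the first or the third ESC array (adjusted p = 0.0751 to 0.13). Tcf3, the E protein of the E2A locus, averaged 7.52 in EB_PSC, 7.77 in PSC and 8.17 in ESC. In all, 5 of the 7 genes rose in EB_PSC against PSC, 0 fell and 2 were not called, with a median of 2.17, beside 18.8% and 25.2% of all genes and a median of -0.09. Between PSC and ESC, 2 were higher, 2 lower and 3 not called, beside 9.07% and 11.7% of all genes.

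The Hedgehog pathway, which induces Olig2 in the neural tube, was described from the ligand to the targets. The ligand Shh had 6.61 and 8.70 in EB_PSC, 5.85, 5.74 and 5.81 in PSC, and 5.78, 6.15 and 5.87 in ESC. The EB_PSC arrays were the highest and lay far apart. Shh rose by 1.85 ± 0.40 in EB_PSC against PSC (limma adjusted p = 0.00171), or by 1.07 with the mean of its probe sets. Without the first EB_PSC array the rise was 2.90, and without the second it was 0.81. Olig1 and Olig2 were higher on the first EB_PSC array, on which Shh was the lower of the 2, and a link was not tested. Of the receptor components, Ptch1, the Hedgehog receptor and a target of the pathway, averaged 10.15 in EB_PSC, 10.89 in PSC and 10.88 in ESC. It fell by 0.74 ± 0.14 in EB_PSC against PSC (limma adjusted p = 0.00059), and PSC minus ESC was 0.01. Smo, the signalling receptor, was lower in PSC than in ESC, at -0.82 ± 0.16 (limma adjusted p = 0.00225), or -0.39 with the mean of its probe sets. The co-receptor Gas1 rose by 2.44 ± 0.15 in EB_PSC against PSC (limma adjusted p = 1.65e-08), or by 1.00 with the mean of its probe sets.

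Gli1, an effector whose transcript is a common readout of the pathway, had 5.60 and 5.48 in EB_PSC, 7.35, 7.57 and 7.60 in PSC, and 8.73, 7.94 and 8.22 in ESC. The groups did not overlap, and ESC, where Olig1 and Olig2 were dim, was highest. A link of Gli1 to either gene was not tested. Gli1 was lower in PSC than in ESC, at -0.79 ± 0.17 (limma adjusted p = 0.00516). It fell by 1.97 ± 0.19 in EB_PSC against PSC (limma adjusted p = 1.93e-06). Gli2, the main activator of the pathway's targets, fell to 8.64 in EB_PSC, against 10.13 in PSC (limma adjusted p = 2.46e-07). Gli3, which mainly acts as a repressor, rose by 1.59 ± 0.13 (limma adjusted p = 2.83e-07). Of the 13 measured genes, 0 were higher in PSC than in ESC, 3 lower and 10 not called, with a median of -0.14, beside 9.07% and 11.7% of all genes. In EB_PSC against PSC, 8 rose, 3 fell and 2 were not called, beside 18.8% and 25.2% of all genes.

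Genes beside the pair on chromosome 16 had smaller PSC minus ESC differences than the pair, which was itself chosen for the size of that difference. Of the 10 annotated genes on each side in RefSeq order, 9 were measured, 5 before the pair and 4 after it. Their PSC minus ESC differences ran from 0.03 to 0.53 with a median of 0.28, and 4 were higher, 0 lower and 5 not called, beside 9.07% and 11.7% of all genes. The nearest measured gene before Olig2 was 4932438H23Rik, 0.24 higher in PSC with a limma adjusted p of 0.362. The nearest after Olig1 was Ifnar2, a chain of the type I interferon receptor, with 7.89 and 7.85 in EB_PSC, 7.56, 7.71 and 7.64 in PSC, and 7.24, 6.77 and 7.30 in ESC. The PSC arrays lay above the ESC arrays, by 0.53 ± 0.14 (limma adjusted p = 0.0157). Synj1, a phosphatase of synaptic vesicle recycling, was 0.47 ± 0.12 higher (limma adjusted p = 0.0156), Cfap298, a cilia gene, 0.46 ± 0.12 (adjusted p = 0.0162), and A930006K02Rik, annotated as a long noncoding RNA and dim, 0.37 ± 0.11 (adjusted p = 0.034).

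Each of these 4 calls was lost under some choices. Ifnar2 lost it over its averaged probe sets (adjusted p = 0.222), or without the second PSC array (adjusted p = 0.0677). Synj1 lost it without the first PSC array (adjusted p = 0.0741) or the first ESC array (adjusted p = 0.0665). Cfap298 stood at -0.024 without probe sets prone to cross-hybridisation and was not called without the second PSC array or the first or the third ESC array (adjusted p = 0.0526 to 0.0678). A930006K02Rik lost it after both other normalizations (adjusted p = 0.0609 and 0.0587), with its probe sets averaged (adjusted p = 0.136), and without the second or the third PSC or the first or the third ESC array (adjusted p = 0.0857 to 0.12).

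In EB_PSC against PSC the neighbours ran from -0.61 to 2.52, with 3 higher, 1 lower and 5 not called, beside 18.8% and 25.2% of all genes. Il10rb, a chain of the interleukin 10 receptor, had 7.96 and 7.67 in EB_PSC against 5.02, 5.51 and 5.38 in PSC. All EB_PSC arrays were higher, as for 25.1% of all genes. With PSC dim, the rise was 2.52 ± 0.16 (limma adjusted p = 2.19e-08), or 1.24 with the mean of its probe sets. It was opposite in direction to Olig1 and Olig2. Over the 377 chromosome 16 genes that were not dim, the median PSC minus ESC difference was -0.04, with 15.4% higher and 17.8% lower. That median stood 14th from the highest of 19 autosomes, which ran from 0.21 (chromosome 12) to -0.10 (chromosome 8).

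**Figure D3:**
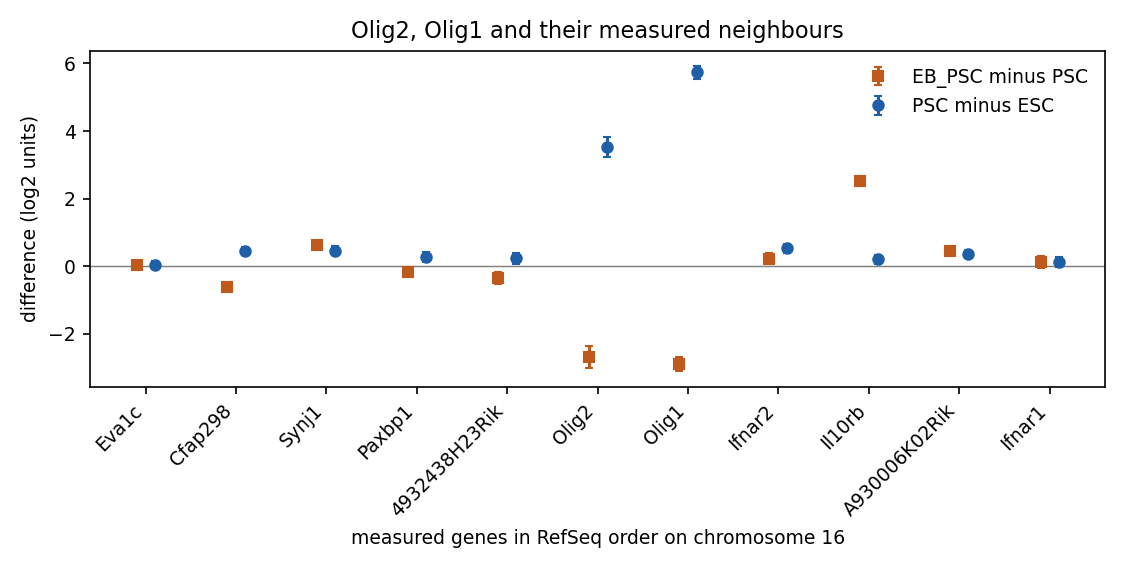
Difference in log2 units (vertical axis, ± SE of the fit) of Olig2, Olig1 and the 9 measured neighbours in their order on chromosome 16, for EB_PSC minus PSC (squares) and PSC minus ESC (circles). The circles of the neighbours lie between 0.03 and 0.53, below those of Olig2 (3.53) and Olig1 (5.73), which were chosen by that difference. The squares of Olig2 and Olig1 (-2.67 and -2.89) lie below all others.

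The genes whose pattern over the 8 arrays was most like that of Olig1 or Olig2 were sought among 1610 genes that spanned at least 2 log2 units. Pearson's r is given over the 8 arrays as a description, since the arrays fall into 3 groups and PSC against ESC chose the pair. Olig1 and Olig2 had an r of 0.945 with each other. That ranked Olig2 22nd among genes like Olig1 and ranked Olig1 8th among genes like Olig2. An r of 0.95 or more was reached by 20 genes for Olig1 and by 6 for Olig2.

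Closest to Olig1 were the probe set annotated to Mir1931 on chromosome 10 (r = 0.994), Zfyve21 on chromosome 12 (0.991), Spata5l1 on chromosome 2 (0.983), Gm21283 on chromosome 8 (0.982), Taf15 on chromosome 11 (0.981) and Dhrs7 on chromosome 12 (0.981). The Mir1931 probe set can read only a longer transcript, such as the primary one, and not the mature miRNA. Its values were 5.70 and 5.32 in EB_PSC, 6.75, 6.84 and 6.74 in PSC, and 3.89, 4.01 and 3.96 in ESC. Like Olig1 it was highest in PSC, intermediate in EB_PSC and dim in ESC, with no overlap. Taf15, an RNA-binding protein of the FET family, averaged 5.95 in EB_PSC, 7.08 in PSC and 4.99 in ESC. Its PSC minus ESC difference of 2.08, with ESC dim, became 0.92 with its probe sets averaged. EB_PSC minus ESC of Taf15 was then 0.20 and not called (limma adjusted p = 0.165). Dhrs7, a short-chain dehydrogenase, averaged 8.55 in EB_PSC, 9.74 in PSC and 7.72 in ESC. Its PSC minus ESC difference of 2.02 became 0.58 with its probe sets averaged. EB_PSC minus ESC of Dhrs7 was then 0.22 and not called (limma adjusted p = 0.167).

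Closest to Olig2 were Nrsn1 on chromosome 13 (r = 0.981), Apoc2 on chromosome 7 (0.976), 2210409E12Rik on chromosome 11 (0.975), Gm21283 (0.974), Lama3 on chromosome 18 (0.957) and Ankrd31 on chromosome 13 (0.951). Gm21283 stood among the closest 6 of both genes, with 6.39 and 6.23 in EB_PSC, 8.42, 8.33 and 8.60 in PSC, and 5.29, 5.27 and 5.27 in ESC. Its highest PSC array was the third, as for Olig2. Nrsn1, a neuronal membrane protein, had 4.74 and 4.69 in EB_PSC, 5.90, 5.84 and 6.13 in PSC, and 4.28, 4.03 and 4.02 in ESC. Of its PSC arrays, the third was also the highest. Apoc2, the activator of lipoprotein lipase, averaged 6.20 in EB_PSC, 7.94 in PSC and 5.35 in ESC. Lama3, a laminin chain of epithelial basement membranes, averaged 6.56 in EB_PSC, 8.13 in PSC and 5.82 in ESC. Its PSC minus ESC difference of 2.31 became 1.17 with its probe sets averaged. EB_PSC minus ESC of Lama3 was then 0.26 and not called (limma adjusted p = 0.122).

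**Figure D4:**
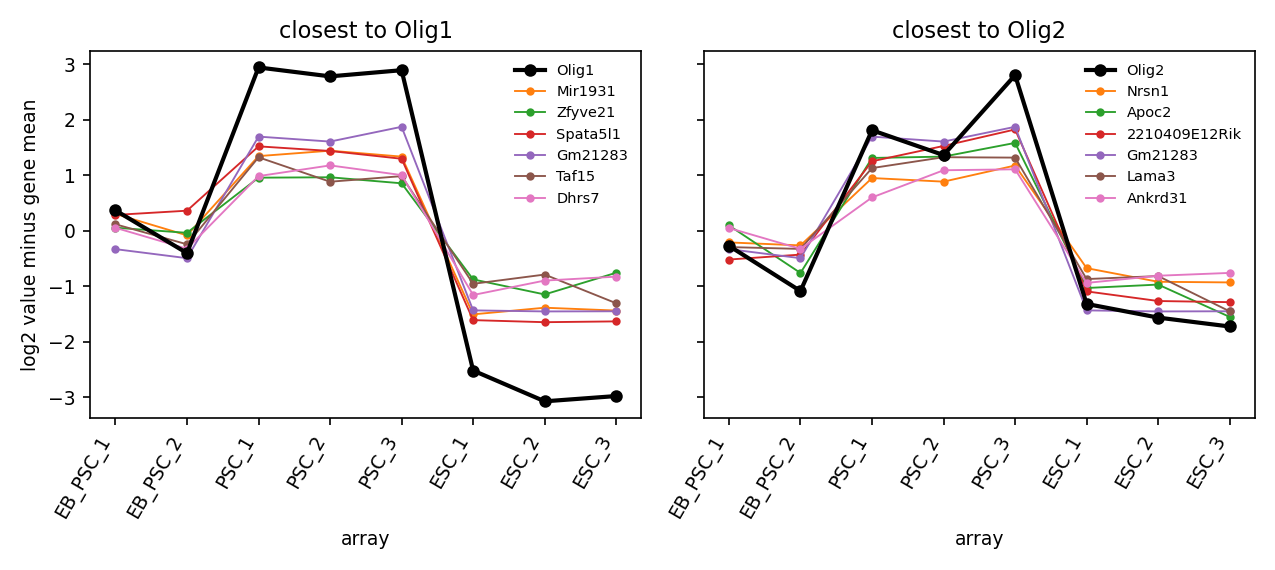
Log2 value minus the gene's mean over the 8 arrays (vertical axis) for Olig1 (left) and Olig2 (right) in black and for the 6 genes of highest Pearson r with each, by array. All lines are highest on the PSC arrays, and EB_PSC arrays lie between PSC and ESC arrays for each gene shown.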

How the data were processed

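The authors made the deposited log2 values with RMA, per the submitters' processing notes, in Bioconductor, per the labels, from 8 arrays of total RNA extracted with the RNeasy kit and labelled with biotin by the Affymetrix One-Cycle kit. Software versions, and whether RMA saw all arrays at once, are not stated in the labels. That the scale is log2 was read off the values, which ran from 2.56 to 14.9 with array medians of 5.39 to 5.47. RMA compresses differences of dim probe sets, and the number of arrays limits the precision.

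Of 45101 probe sets, 34958 carried 1 gene symbol, 932 several and 9211 none, per the platform annotation. Entrez identifiers matched 34754 to RefSeq genes of GRCm38.p6, which updated 0 symbols and gave chromosomes and gene order. Each of 18194 genes was read by its probe set of highest mean. Tests used limma 3.58.1 in R 4.3.3 with all 8 arrays in 1 fit and the group as the only term, two-sided, with Benjamini-Hochberg adjustment over all genes. The fit had 5 residual and 8.07 prior degrees of freedom, and its code was tested on simulated data. Tables used Python 3.11.15 with pandas 2.3.3 and NumPy 2.4.6, and figures Matplotlib 3.10.9.

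The members and the lists were chosen with earlier results of these data known. The 12 lists name 142 genes, of which 136 were measured and 6 were not analysed here. The rule for named genes took 33 fixed genes (30 measured), up to 4 called members of each list and comparison, the called neighbours and the nearest on each side, and the 6 genes of highest r for each member. Ninl and AI662270 fall outside it and were named after their values were seen. The 18 alternatives comprised cyclic loess, repeated quantile normalization, removal of dim genes, a gene's probe sets averaged, probe sets ending in _x_at or _s_at left out, every probe set tested on its own, only the compared groups fitted, a trended and robust prior, weights per array, a block for the replicate number and each of the 8 arrays left out.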

Additional observations from a re-analysis of the deposited data

How the results depend on the processing

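Olig1 kept its direction and its calls in both embryoid body comparisons under every alternative, as did Olig2 in EB_PSC minus PSC. Leaving out single arrays gave -3.28 to -2.51 for Olig1 and -3.08 to -2.27 for Olig2 in EB_PSC minus PSC, 2.46 to 3.23 and 0.45 to 1.27 in EB_PSC minus ESC, and 5.63 to 5.90 and 3.13 to 3.85 in PSC minus ESC. The Olig2 call in EB_PSC minus ESC was lost after repeated quantile normalization (0.81, limma adjusted p = 0.0663), with cyclic loess (0.89, adjusted p = 0.0576), with the mean of all probe sets (0.86, adjusted p = 0.061), with a trended and robust prior (0.86, adjusted p = 0.0722), with every probe set tested (0.86, adjusted p = 0.0702) and without single arrays (limma adjusted p up to 0.424), and the cause was not tested. Called genes numbered 3782 in PSC minus ESC, 5693 with array weights and 2490 to 4142 without single arrays, the lowest without the first PSC array. With every probe set tested, 7015, 15550 and 16188 probe sets passed in PSC minus ESC, EB_PSC minus PSC and EB_PSC minus ESC, against 3782, 7995 and 8165 genes, since more features were tested. Without single arrays the embryoid body counts were 6687 to 8370 and 6998 to 8304. Cyclic loess turned the split of calls to 4185 higher and 3566 lower in EB_PSC minus PSC (main 3417 and 4578) and to 4435 and 3626 in EB_PSC minus ESC (main 3513 and 4652). In PSC minus ESC the split was 1974 and 1933 with cyclic loess and 2026 and 1870 after repeated quantile normalization (main 1651 and 2131). Without probe sets ending in _x_at or _s_at, PSC minus ESC was -0.057 for Cnp and -0.024 for Cfap298, and Mbp was -0.037 in EB_PSC minus PSC and -0.0081 in EB_PSC minus ESC. With the mean of all probe sets, Synj1 was -0.065 in EB_PSC minus PSC and Foxp1 -0.38 in EB_PSC minus ESC. Of 5073 values of named genes, 4866 kept their call or the lack of one, 157 lost and 44 gained a call and 6 reversed. A change of direction was counted only where the main or the alternative fit called the gene. Of 78 counts of called list and neighbour genes, recomputed to 1326 values, 43 moved by over 1.5 times, or to or off 0, under some setting, in 116 values. Same-numbered arrays of PSC and ESC had correlations of -0.25, -0.07 and -0.04 in their deviations from the group means. Those of EB_PSC and PSC had -0.14 and 0.04, and those of EB_PSC and ESC 0.16 and 0.22. With 2 or 3 arrays per group, these values cannot decide whether the numbers pair the samples. With the replicate block, Olig1 was at -2.92 and Olig2 at -2.52 in EB_PSC minus PSC, and 3564, 7517 and 7693 genes were called.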

Other observations

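Neuron and astrocyte genes, other descendants of the neural tube, were described in the same way. Of 12 neuron genes, 3 rose in EB_PSC against PSC, 5 fell and 4 were not called, beside 18.8% and 25.2% of all genes. Gap43, a protein of growing axons, had 8.69 and 7.72 in EB_PSC, 5.02, 5.51 and 5.48 in PSC, and 6.25, 6.26 and 6.28 in ESC. Its PSC arrays were the lowest, with a dim mean, and it rose by 2.87 ± 0.23 in EB_PSC (limma adjusted p = 2.98e-07). It was lower in PSC than in ESC, at -0.92 ± 0.21 (limma adjusted p = 0.00604). Stmn2, a microtubule regulator of neurons, averaged 10.62 in EB_PSC, 11.48 in PSC and 10.93 in ESC, so that PSC was highest, as for Olig1. It fell by 0.86 ± 0.14 in EB_PSC against PSC (limma adjusted p = 0.000146) and was 0.56 ± 0.12 higher in PSC than in ESC (limma adjusted p = 0.0054), or 0.33 with its probe sets averaged. Tubb3, a neuronal tubulin, was lower in PSC than in ESC, at -0.88 ± 0.23 (limma adjusted p = 0.0144), a call lost without the first PSC array (-0.64, adjusted p = 0.0798) or the first ESC array (-0.70, adjusted p = 0.0645).

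Of 8 astrocyte genes, 3 rose in EB_PSC against PSC, 1 fell and 4 were not called, beside 18.8% and 25.2% of all genes. Gfap, the astrocyte filament protein, averaged 5.77 in EB_PSC, 6.04 in PSC and 6.03 in ESC, and was not called. Sox9, a glial and cartilage factor that was dim in PSC, rose by 1.41 ± 0.21 in EB_PSC (limma adjusted p = 8.18e-05). With its probe sets averaged it rose by 0.87. Gja1, a connexin found in astrocytes and heart muscle, rose by 1.45 ± 0.20 (limma adjusted p = 3.8e-05), or by 0.78 without probe sets prone to cross-hybridisation. Aldh1l1, a folate enzyme of astrocytes that was dim in EB_PSC, fell by 0.86 ± 0.13 (limma adjusted p = 0.000103). With its probe sets averaged it fell by 0.47. Between PSC and ESC, 0 astrocyte genes were higher, 1 lower and 7 not called, beside 9.07% and 11.7% of all genes.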
